A study of Mus musculus with 12 samples.

Results

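Aminoacyl-tRNA synthetases and genes of the integrated stress response were followed in sorted spinal cord microglia through a relapsing autoimmune disease model. The set held 32 genes of 48526 in the count files. They were taken as a list of symbols with no threshold on a measured value, drawn up with earlier results of these data known. Of the 32, 17 encode cytosolic tRNA synthetases. Another 7 are regulators and early targets of the stress response (Atf4, Ddit3, Trib3, Chac1, Ddit4, Sesn2 and Ppp1r15a), 6 serve amino acid and one-carbon metabolism (Asns, Psat1, Phgdh, Shmt2, Mthfd2 and Slc7a5), and 2 belong to the endoplasmic reticulum (ER) arm (Eif2ak3 and Xbp1).

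All mice were of the Biozzi ABH strain. Chronic-relapsing experimental autoimmune encephalomyelitis (EAE) is an immune attack on myelin used to model multiple sclerosis. Compared were EAE mice in the acute phase, EAE mice in remission, EAE mice in the chronic phase, and control mice, with 3 mice in each. The labels give no age or sex, no days after induction, and not what the control mice received. The gate took CD11b-positive cells with intermediate CD45 and no Ly-6C, and their RNA was sequenced as bulk libraries.

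A tRNA synthetase joins 1 amino acid to its tRNAs and so supplies the ribosome. Several of these enzymes sit together in a cytosolic multi-synthetase complex, and Gars and Kars also encode the mitochondrial form of their enzyme. In the integrated stress response, kinases that sense amino acid shortage, unfolded ER proteins, double-stranded RNA or heme shortage phosphorylate the initiation factor eIF2. General translation then slows while the mRNA of the transcription factor ATF4 is translated better, and ATF4 induces genes of amino acid supply, many synthetases, and feedback regulators. Because ATF4 is regulated in large part at translation, its mRNA level does not measure its activity. Wars, the tryptophanyl-tRNA synthetase, is in addition a known target of interferon gamma.

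ATF4 binds with C/EBP partners to composite elements of the form TGATGNAA (read on both strands). RefSeq promoter windows, from 250 bases before to 50 after a transcription start on GRCm38.p6, were at hand for 24 of the 32 genes. This form was present in 8 of the 24 (33.3%), against 4.51% of all 27025 genes with a window. The stretches of 4 of these genes are shown: Asns and Chac1, classic targets with few counts, and Gars and Aars, the synthetases that carry the element and rose in the acute phase. Each reads 5′ to 3′ on the strand of its gene, and capitals mark the element or its reverse complement.
Asns (chr6:7693207-7693250, minus strand): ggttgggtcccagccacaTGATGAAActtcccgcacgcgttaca
Chac1 (chr2:119351031-119351074, plus strand): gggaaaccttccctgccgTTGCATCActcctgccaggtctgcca
Gars (chr6:55037953-55037996, plus strand): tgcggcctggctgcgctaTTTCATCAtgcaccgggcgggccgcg
Aars (chr8:111033712-111033755, plus strand): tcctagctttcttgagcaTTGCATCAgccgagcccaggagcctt
The match began 23 bases before the start in Asns, 193 before it in Chac1, 30 before it in Gars and 112 before it in Aars, which held a second match just after its start. Trib3, Yars, Iars and Tars also held the form. Among members with a window, it was present in 2 of the 8 that rose in acute against control, in 3 of 13 that were tested and did not, and in all 3 that had too few counts for the test.

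Interferon elements and an ER stress element were searched in the same windows. Wars had no window, nor had Cars, Hars, Lars, Nars, Rars, Vars and Slc7a5, so their promoters were not searched for any form. The interferon-stimulated form TTTCNNTTTC was found in 2 of 24 members (Ppp1r15a and Qars), against 3.99% of all genes, and the gamma-activated form TTCNNNGAA in 4 of 24 (Eif2ak3, Aars, Kars and Shmt2), against 9.55%. The ER stress form, CCAAT and CCACG with 9 bases between, was found in 0 of 24, against 0.137%. A match describes letters in a window and not a bound site.

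Library depth and the makeup of the sorted cells bear on every value. Total counts were 3992885 to 5712376 per library. The 6 largest features held 62.4 to 64.1% of them in acute, 56.4 to 60.4% in remission, 56.4 to 62.7% in chronic and 48.3 to 56.2% in control libraries, and mitochondrial genes held 5.17 to 5.74% in acute, 2.51 to 3.81% in remission, 3.02 to 4.36% in chronic and 1.92 to 2.29% in control libraries. One of the 6 is Lars2, the mitochondrial leucyl-tRNA synthetase gene, with 16.9% of all counts. The largest is CT010467.1, with 27.8%, and the others are Mir6236, Gm26917, Gm15564 and Gm23935. Levels are counts scaled to a common library size (CPM) after trimmed-mean-of-M (TMM) scaling. The 10 microglial markers summed to 1056 to 1839 CPM in acute, 4981 to 5123 in remission, 4700 to 5136 in chronic and 6659 to 7626 in control libraries. P2ry12, a microglial purinergic receptor, averaged 66.5 ± 18.8 CPM in acute and 679 ± 93.0 CPM in control libraries (SD, n = 3). The 12 monocyte and macrophage markers summed to 1563 to 2332 CPM in acute, 14.9 to 26.8 in remission, 22.3 to 35.2 in chronic and 12.5 to 50.3 in control libraries, and Ly6c2, a gene of the antigen the gate excluded, stood at 42.7 to 76.5 CPM in acute libraries and had 0 counts in control libraries. T and NK cell markers summed to 75.3 to 111 CPM in acute libraries and to at most 3.51 CPM in any other library. Of 8 neutrophil genes tested, 7 were higher and 1, Csf3r, lower in acute than in control libraries, with 23.7% of all genes higher and 20.0% lower. The 9 oligodendrocyte markers, of which 7 were higher in acute than in control, summed to 458 to 616 CPM in acute, 71.7 to 717 in remission, 84.0 to 84.8 in chronic and 88.6 to 112 in control libraries, and the 717 CPM belonged to remission replicate 1. Astrocyte and neuron markers are given beside Phgdh and Psat1. In bulk RNA, fewer cells of a type and less RNA per cell cannot be told apart, and the part of other cells and of library composition in these values was not tested.

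Against control mice, the acute phase raised 12 of the 29 members that had enough counts for the test and lowered 1, Dars, at an adjusted p under 0.05 (edgeR's quasi-likelihood test, Benjamini-Hochberg adjusted over 12545 genes). With library totals in place of TMM factors, a scaling that moved the median log2 fold change of all genes from 0.02 to -0.53, 6 members were higher and 8 lower. Over all genes tested, 23.7% were higher and 20.0% lower with TMM factors. Every share over all genes, here and below, is the one with TMM factors. None is given for library totals alone, so member counts under that scaling have no share to be set against. The median log2 fold change was 0.40 over the 29 members. The higher members were 7 synthetases (Aars, Gars, Hars, Kars, Qars, Vars and Wars), the leucine sensor gene Sesn2, and 4 genes of amino acid and one-carbon metabolism (Psat1, Phgdh, Mthfd2 and Slc7a5). Atf4 itself, Ddit3, Xbp1 and Eif2ak3 were not among them.

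**Figure D1:**
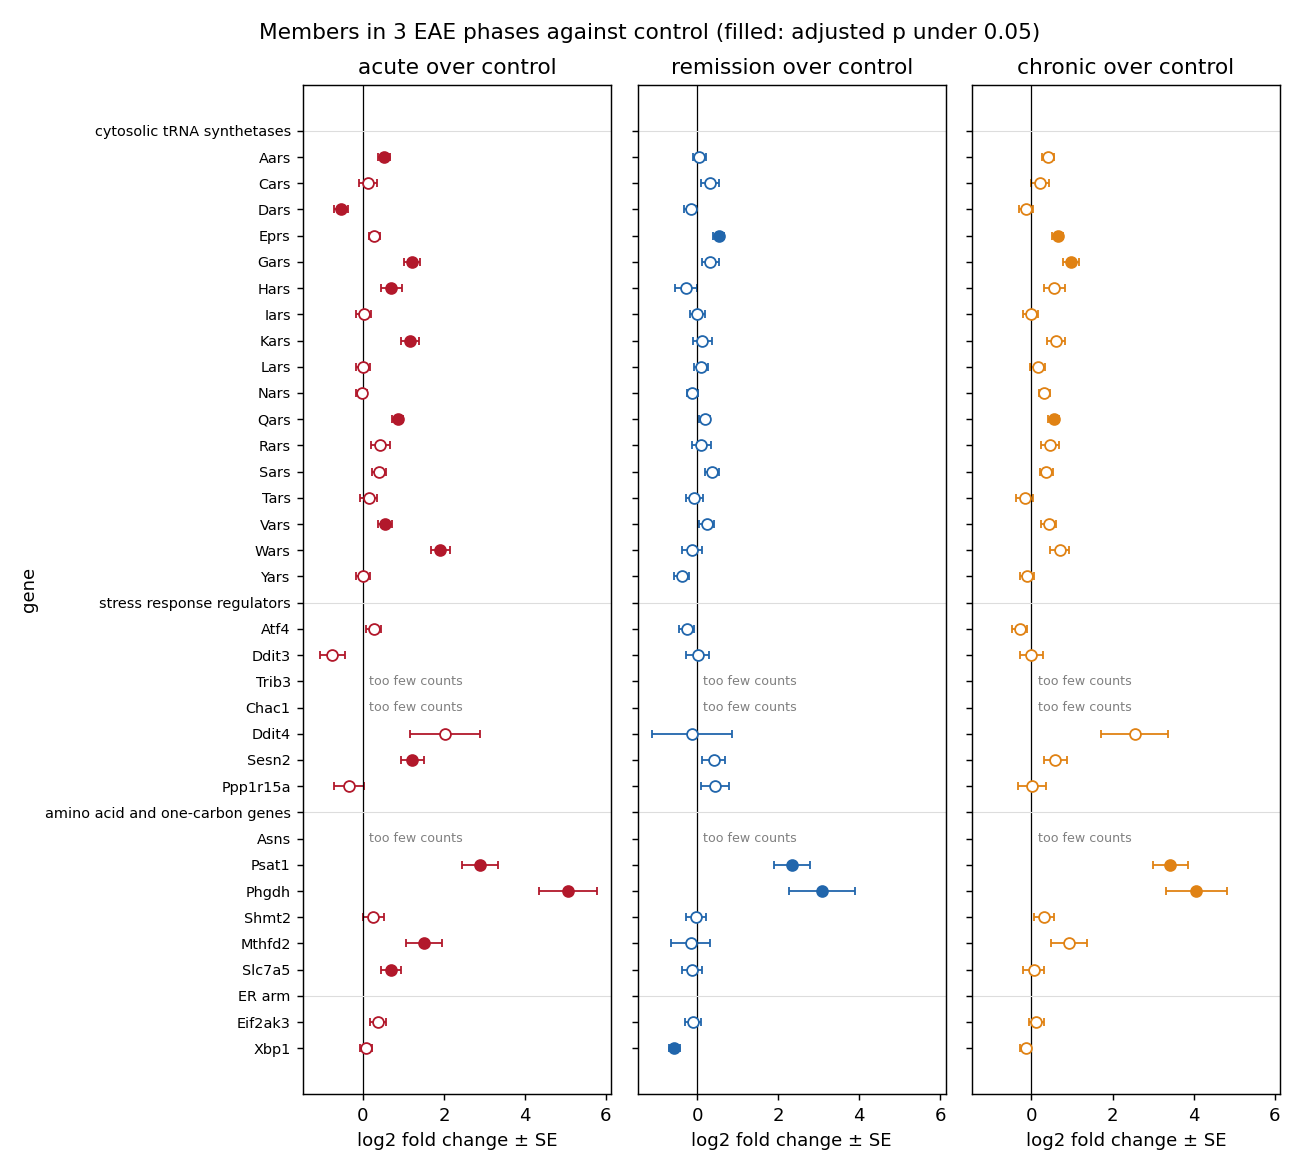
Log2 fold change over control with its standard error for the 29 tested of the 32 genes in each of 3 phases (3 mice per group). Asns, Chac1 and Trib3 are marked as having too few counts. Filled points have an adjusted p under 0.05: 12 higher and 1 lower in acute, 3 higher and 1 lower in remission, and 5 higher in chronic. The shares over all genes tested were 23.7% higher and 20.0% lower in acute, 6.06% and 3.25% in remission, and 9.57% and 5.17% in chronic. Psat1 and Phgdh are filled in all 3 phases. With library totals alone, the acute values of Aars, Vars, Atf4, Eif2ak3 and Xbp1, among others, lie below 0.

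Among the synthetases Wars changed most in the acute phase. Wars (ENSMUSG00000021266, chromosome 12, bases 108860030 to 108894174) stood at 55.0, 65.8 and 63.7 CPM in the acute libraries, at 9.41, 21.04 and 14.6 in remission, at 19.3, 25.6 and 34.9 in the chronic phase, and at 16.6, 15.4 and 17.0 in control. Every acute library was above every other library. The log2 fold change of acute over control was 1.91 ± 0.23 (SE), with an adjusted p of 3.2e-06. In remission Wars lay 2.03 below acute on the log2 scale (log2 fold change -2.03 ± 0.24, adjusted p 3.67e-06), and in the chronic phase 1.21 below it (-1.21 ± 0.23, adjusted p 0.000566). The 3 chronic libraries were all above the 3 control libraries, at a log2 fold change of 0.69 ± 0.24 and an adjusted p of 0.059.

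Wars is listed among interferon gamma targets, and the other genes of that kind were counted beside it. Of 20 such genes other than Wars, 19 had enough counts, and against control 18 rose in acute libraries, 7 in remission and 15 in the chronic phase. Over all genes tested, 23.7%, 6.06% and 9.57% were higher in these phases. Their summed level was 2939 to 3308 CPM in acute, 714 to 841 in remission, 777 to 1792 in chronic and 571 to 593 in control libraries. The lowest chronic sum, 777 CPM, belonged to chronic replicate 1, which also had the lowest Wars level of the 3 chronic libraries, and the highest, 1792 CPM, to chronic replicate 3, which had the highest. This order was common among the members, of which 19 of 32 were lowest in chronic replicate 1 and 23 highest in chronic replicate 3.

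Gars and Kars, the glycyl and lysyl enzymes that serve both cytosol and mitochondria, each rose a little over 2-fold. Gars (ENSMUSG00000029777, chromosome 6) had 36.3, 58.9 and 48.0 CPM in acute libraries, 25.8, 20.9 and 30.8 in remission, 29.96, 44.1 and 46.7 in chronic and 19.1, 23.0 and 19.4 in control. Acute and chronic libraries lay wholly above control, and acute wholly above remission. The log2 fold change over control was 1.22 ± 0.20 in acute (adjusted p 5.54e-05) and 0.97 ± 0.20 in chronic libraries (adjusted p 0.00188). Kars (chromosome 8) had 24.6, 30.1 and 23.7 CPM in acute libraries, 13.3, 14.5 and 10.1 in remission, 13.4, 16.4 and 23.7 in chronic and 11.5, 9.81 and 13.8 in control. Its log2 fold change of acute over control was 1.16 ± 0.22 (adjusted p 0.000236), and that of remission over acute was -1.04 ± 0.22 (adjusted p 0.00106). The Kars level of chronic replicate 3 equalled the lowest acute level to 3 digits, while chronic replicate 1 lay within the control range and chronic replicate 2 above it.

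Qars, which charges glutamine tRNAs within the complex, had 58.4, 63.9 and 56.6 CPM in acute libraries, 37.7, 37.1 and 37.2 in remission, 46.1, 45.2 and 53.3 in chronic and 39.3, 28.7 and 30.2 in control. The groups formed 3 tiers that did not overlap, with acute above chronic and chronic above both remission and control. The acute log2 fold change over control was 0.86 ± 0.14 (adjusted p 4.96e-05) and the chronic one 0.55 ± 0.14 (adjusted p 0.0103). The chronic call ended without chronic replicate 3, control replicate 2 or control replicate 3 (adjusted p up to 0.0725), and both ended with library totals alone.

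Smaller acute increases were found for 3 more synthetases. Aars, the alanyl enzyme, had 55.3, 66.6 and 64.6 CPM in acute libraries against 44.7, 44.0 and 41.0 in control (log2 fold change 0.52 ± 0.15, adjusted p 0.00794). Vars, the valyl enzyme, had 53.2, 53.3 and 39.4 CPM in acute and 40.1, 28.2 and 31.3 in control libraries, which overlap (0.55 ± 0.18, adjusted p 0.0188). Hars, the histidyl enzyme, had 15.8, 10.9 and 9.78 CPM in acute and 6.83, 6.83 and 9.06 in control libraries (0.70 ± 0.26, adjusted p 0.0359). Aars and Vars had log2 fold changes of -0.0382 and -0.0258 with library totals alone. The Vars call ended without acute replicate 1 or 2 or control replicate 2 or 3 (adjusted p up to 0.108), and the Hars call without acute replicate 1 or control replicate 1 or 2 (adjusted p up to 0.226), under DESeq2, with library totals alone, with no filter and with the number in the sample titles added to the model. Hars shares 195 exon bases with Hars2 on the opposite strand, and the library kit does not mark strand.

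Dars, the aspartyl enzyme of the complex, moved the other way. It had 16.9, 17.9 and 16.0 CPM in acute libraries, against 26.7, 24.0 and 22.9 in control. All 3 acute libraries lay below all 3 control libraries (log2 fold change -0.54 ± 0.18, adjusted p 0.0183). The call ended without acute replicate 3 or control replicate 1 (adjusted p up to 0.0622).

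The other 9 synthetases (Cars, Eprs, Iars, Lars, Nars, Rars, Sars, Tars and Yars) passed no test in the acute phase. Their acute log2 fold changes over control ran between -0.03 in Nars and 0.43 in Rars. Sars, the seryl enzyme, did not overlap between groups, with 24.9, 29.3 and 30.8 CPM in acute and 20.9, 20.7 and 23.1 in control libraries, but its adjusted p was 0.065. Of the 7 members that belong to the multi-synthetase complex, 2 rose and 1 fell, and of the 10 outside it, 5 rose, with 23.7% of all genes higher and 20.0% lower; the difference between these shares was not tested. Under library totals alone 1 rose and 3 fell in the complex, and 2 rose and 2 fell outside it. The split by complex was made after the values were seen.

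Levels per kilobase of exon (GENCODE basic transcripts) show where these changes left the synthetases relative to each other. In control libraries Nars, the asparaginyl enzyme, was highest at 16.3 ± 0.617 CPM per kilobase, then Eprs at 12.8 ± 0.953 and Qars at 11.7 ± 2.04, and the last pair did not differ beyond its spread. Wars was 13th of 17 in control libraries at 5.70 ± 0.295. In acute libraries Wars at 21.4 ± 1.999, Qars at 21.3 ± 1.37 and Gars at 20.1 ± 4.74 CPM per kilobase came first and did not differ beyond their spread, with Nars at 16.0 ± 3.09 after them. Tars and Hars, the threonyl and histidyl enzymes, were the lowest pair in both groups.

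Further cytosolic synthetase genes and complex scaffolds were counted apart. Of Mars, Farsa, Farsb, Aimp1, Aimp2 and Eef1e1, 0 of 6 passed the test in acute against control by edgeR, DESeq2 or limma-voom, and 0 at an unadjusted p under 0.05; with library totals alone 2 were lower. Of 17 mitochondrial synthetases 3 rose (Lars2, Nars2 and Iars2) and 3 fell (Ears2, Wars2 and Yars2) in acute libraries, or 17.6% each way, below the 23.7% and 20.0% over all genes. With library totals alone 2 rose and 7 fell, and none fell without acute replicate 1 and 1 without control replicate 1. One rose, and 3 fell, when Lars2 and the other top features were set aside. Lars2 held 16.9% of all counts, and whether these reads come from its mRNA was not tested. Nars2, the mitochondrial asparaginyl enzyme, averaged 22.7 ± 10.3 CPM in acute and 5.70 ± 1.15 CPM in control libraries, and Wars2, the mitochondrial tryptophanyl enzyme, 4.85 ± 2.79 and 9.47 ± 0.626 CPM. The log2 fold change of acute over control was 1.91 in Wars and -0.95 in Wars2.

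**Figure D2:**
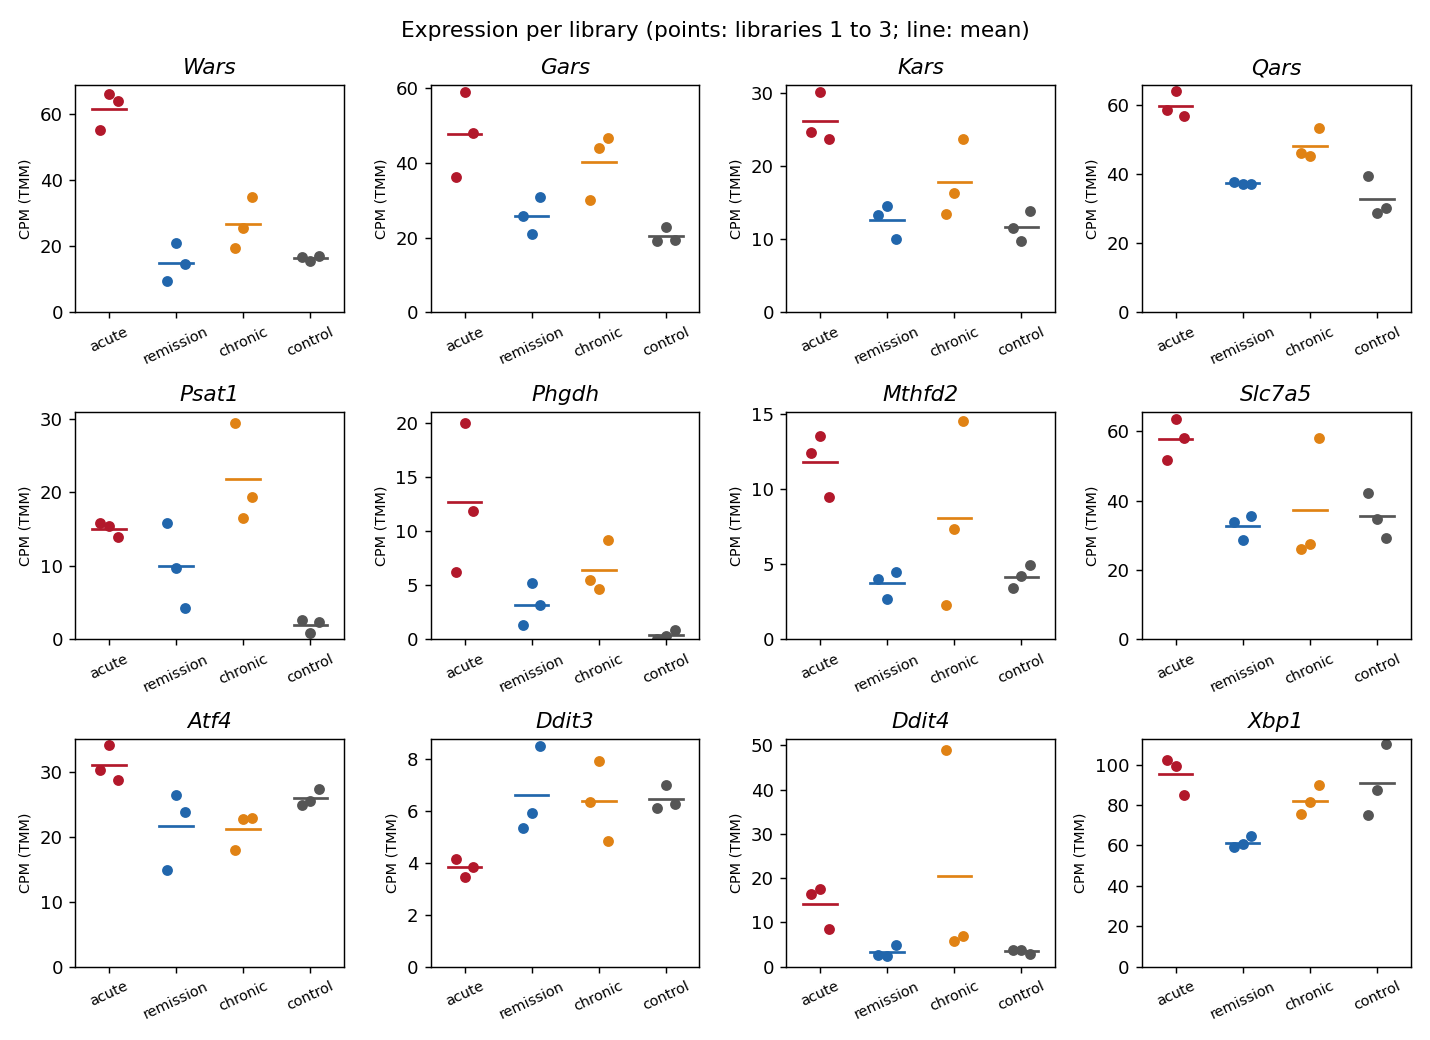
CPM (TMM scaled, linear axes from 0) of 12 members in each library of the 4 groups, with a line at the mean. Acute libraries lie above control libraries in Wars, Gars, Kars, Qars, Psat1, Phgdh, Mthfd2, Slc7a5, Atf4 and Ddit4 and below them in Ddit3. Of these, Atf4, Ddit4 and Ddit3 were not called in acute against control. Acute and control libraries overlap in Xbp1, and chronic replicate 1 stands at 49.0 CPM in Ddit4.

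Among the 29 tested members, the largest fold changes over control were in the first steps of serine synthesis. Phgdh (ENSMUSG00000053398, chromosome 3, bases 98313170 to 98339990) encodes the dehydrogenase that opens the pathway out of glycolysis, and Psat1 (ENSMUSG00000024640, chromosome 19, bases 15904678 to 15947337) the transaminase that follows. Both were higher than control in all 3 phases, and no other of the 29 tested members was. The sum of the astrocyte and neuron markers also lay above control in every library of the 3 phases. Its genes did not all move alike. The 8 genes of that list summed to 187 to 229 CPM in acute and 61.7 to 78.2 in control libraries. The remission sums were 105 to 201 CPM and the chronic sums 117 to 203 CPM. Of the 6 tested, 3 passed as higher than control in the acute phase (Gfap, Aqp4 and Aldh1l1). In each later phase 2 did, Aldh1l1 and Slc1a3. Slc1a3 averaged 127 ± 52.7 CPM in chronic and 91.9 ± 32.6 in remission libraries. Its acute level, 44.4 ± 7.88 CPM, was near the control level of 41.2 ± 5.61. In the chronic phase Slc1a2 (4.18 ± 1.58 CPM) lay below every control library (14.8 ± 2.15) and Gfap above, neither called. The chronic means of Aqp4 and Snap25 were also below control. Aldh1l1, an astrocyte folate enzyme, was higher in each phase, at 15.3 ± 5.95 CPM in acute, 6.25 ± 1.05 in remission, 9.53 ± 1.38 in chronic and 2.50 ± 0.880 in control libraries. Their part in the Phgdh and Psat1 levels was not tested. Phgdh had 24, 75 and 40 counts in acute libraries, 7, 27 and 12 in remission, 24, 26 and 36 in chronic and 0, 2 and 4 in control, or 12.7 ± 6.92, 3.21 ± 1.94, 6.44 ± 2.41 and 0.405 ± 0.434 CPM. No library of the 3 phases overlapped control. Its log2 fold change over control was 5.07 ± 0.72 in acute (adjusted p 3.67e-05), 3.09 ± 0.81 in remission (adjusted p 0.0247) and 4.07 ± 0.76 in chronic libraries (adjusted p 0.00153). With 6 counts over the control libraries, the size of these folds is uncertain.

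Psat1 stood at 15.8, 15.5 and 13.9 CPM in acute libraries, 15.9, 9.76 and 4.25 in remission, 29.5, 16.6 and 19.4 in chronic and 2.70, 0.876 and 2.37 in control. Unlike Wars, its highest values were chronic: all 3 chronic libraries were above all 3 acute ones, at a log2 fold change of 0.53 ± 0.35 and an adjusted p of 0.299. Against control the log2 fold change was 2.90 ± 0.45 in acute (adjusted p 7.62e-05), 2.34 ± 0.45 in remission (adjusted p 0.00303) and 3.42 ± 0.43 in chronic libraries (adjusted p 4.87e-05). These Psat1 calls kept in all 12 fits that left out 1 library, with adjusted p up to 0.0166. The Phgdh call in remission ended without remission replicate 2 or 3 or control replicate 1 or 2, and with limma-voom (adjusted p up to 0.0992 without 1 library).

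Downstream of serine, Mthfd2 and Shmt2 encode mitochondrial enzymes of the folate one-carbon cycle. Mthfd2 had 12.5, 13.6 and 9.49 CPM in acute libraries, 4.06, 2.68 and 4.52 in remission, 2.27, 7.38 and 14.5 in chronic and 3.41, 4.21 and 4.96 in control. Acute libraries lay above control and remission (log2 fold changes 1.51 ± 0.44, adjusted p 0.00989, over control and -1.67 ± 0.45, adjusted p 0.00787, of remission over acute), while the chronic libraries spread from below the control range to above the acute one. Shmt2 was not called in any comparison, at 11.2, 16.3 and 13.04 CPM in acute and 10.5, 10.7 and 12.9 CPM in control libraries.

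Slc7a5, the light chain of a transporter for large neutral amino acids, had 51.9, 63.7 and 58.1 CPM in acute libraries, 33.8, 28.7 and 35.6 in remission, 26.1, 27.5 and 58.1 in chronic and 42.2, 34.9 and 29.3 in control. The acute log2 fold change over control was 0.70 ± 0.25 (adjusted p 0.0343), a call that ended without any 1 acute replicate or control replicate 2 or 3 (adjusted p up to 0.118), with library totals alone and with the number in the titles added to the model. Chronic replicate 3 was at the acute level and the other 2 chronic libraries below every control library. Slc3a2, its heavy chain, averaged 95.3 ± 4.41 CPM in acute, 97.3 ± 8.40 in chronic and 59.8 ± 10.96 in control libraries (log2 fold change 0.68 ± 0.14 in acute, adjusted p 0.00055; 0.71 ± 0.14 in chronic, adjusted p 0.00126).

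Asns, Chac1 and Trib3, 3 classic ATF4 targets, had 79, 22 and 24 counts in all 12 libraries together and did not pass the filter on low counts. Asns, asparagine synthetase, had 10, 27 and 5 counts in acute libraries, 9, 4 and 4 in remission, 1, 6 and 9 in chronic and 1, 1 and 2 in control. Every acute library had more than every control library. Over pooled counts the ratio of acute to control was 16.6 (exact 95% counting interval 6.03 to 63.8), of remission to control 5.12 (1.67 to 20.9) and of chronic to control 5.01 (1.61 to 20.6). Chac1, which encodes a glutathione-degrading enzyme, had 2, 7 and 6 counts in acute, 1, 1 and 0 in remission, 0, 2 and 3 in chronic and 0 in all control libraries. Its pooled acute level was 7.91-fold above a floor of 3 counts over the control libraries. That value leaves out the counting error of the acute counts. Trib3, a pseudokinase that feeds back on ATF4, had 5, 6 and 2 counts in acute, 1, 0 and 1 in remission, 1, 2 and 4 in chronic and 2, 0 and 0 in control libraries, and its ratio of acute to control was 10.3 (2.33 to 93.8). When no filter was applied, the adjusted p of acute against control was 3.18e-05 in Asns, 0.00343 in Chac1 and 0.0707 in Trib3, and under DESeq2 it was 0.000939, 0.00744 and 0.0765.

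**Figure D3:**
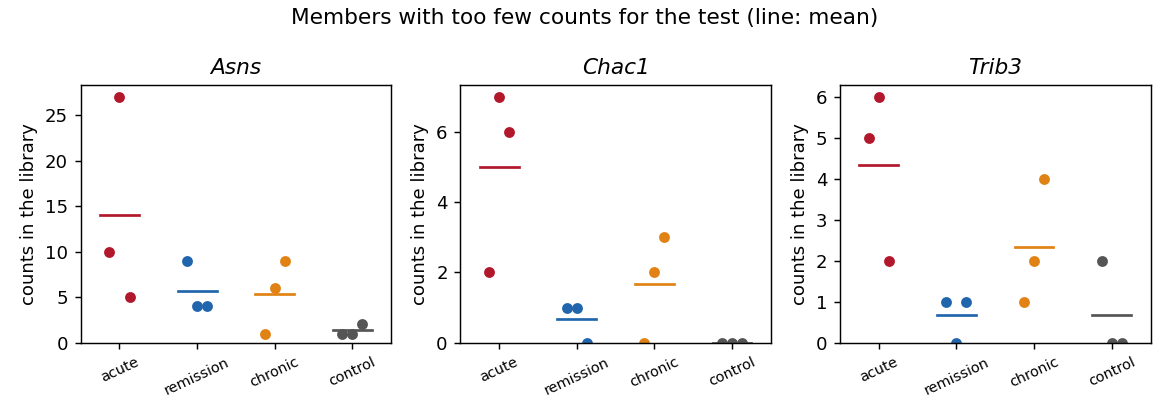
Counts (not scaled) of Asns, Chac1 and Trib3 in each library of the 4 groups, with a line at the mean. Acute libraries hold 5 to 27 counts of Asns and 2 to 7 of Chac1, against 1 to 2 and 0 in control libraries.

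Atf4 and Ddit3, transcription factors of the response, were not called in acute against control in the fit over all 12 libraries. Atf4 (ENSMUSG00000042406, chromosome 15) had 30.4, 34.1 and 28.8 CPM in acute libraries, 15.0, 26.4 and 23.9 in remission, 17.9, 22.7 and 23.0 in chronic and 24.9, 25.6 and 27.4 in control. All acute libraries were above all others, but the log2 fold change over control was 0.26 ± 0.19 (adjusted p 0.27; -0.29 with library totals alone). It was lower in remission than in acute (-0.52 ± 0.19, adjusted p 0.0377) and lower in chronic than in acute libraries (-0.55 ± 0.19, adjusted p 0.036). Both calls ended under DESeq2, with library totals alone, and in 6 and 7 of 12 fits without 1 library, which included leaving out any control replicate, acute replicate 1 or acute replicate 2, remission replicate 1 in the first, and chronic replicate 1 or 2 in the second (adjusted p up to 0.247 and 0.133). The remission call also ended with no filter and when only these groups were fitted.

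Ddit3 encodes CHOP, the factor linked to cell death under lasting stress. It had 4.15, 3.46 and 3.85 CPM in acute libraries, 5.35, 5.93 and 8.50 in remission, 6.36, 7.92 and 4.85 in chronic and 6.12, 7.01 and 6.26 in control. The acute libraries were the 3 lowest of the 12. Its log2 fold change of acute over control was -0.75 ± 0.31 with an adjusted p of 0.0573, and it passed when only these 2 groups were fitted and with library totals alone. Ddit3 shares 68 exon bases with Mars on the opposite strand. Ppp1r15a, which encodes the inducible subunit that dephosphorylates eIF2, was not called in any comparison and had 4.41, 5.06 and 3.56 CPM in acute and 3.70, 7.54 and 5.39 CPM in control libraries.

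Sesn2 and Ddit4 restrain the growth kinase complex mTORC1. Sesn2 had 11.7, 10.7 and 14.5 CPM in acute libraries, 7.94, 5.74 and 7.17 in remission, 8.63, 5.40 and 9.95 in chronic and 4.84, 6.31 and 4.53 in control. It rose in acute against control (log2 fold change 1.22 ± 0.28, adjusted p 0.00133; not called with library totals alone) and was lower in remission than in acute libraries (-0.82 ± 0.28, adjusted p 0.025). Ddit4 had 16.3, 17.6 and 8.60 CPM in acute libraries, 2.58, 2.49 and 4.78 in remission, 49.0, 5.76 and 6.89 in chronic and 3.70, 3.86 and 2.81 in control. All acute libraries lay above all control and remission libraries, yet the fit over all 12 libraries gave an adjusted p of 0.0879 (log2 fold change 2.02 ± 0.86). Without chronic replicate 1, the library at 49.0 CPM, the same comparison gave 2.02 ± 0.33 and an adjusted p of 3.63e-05, and that of remission with acute gave -2.14 ± 0.34 and 4.11e-05. Chronic against control gave 2.54 ± 0.83 (adjusted p 0.0801) with that library and 0.85 ± 0.38 (adjusted p 0.169) without it.

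In the ER arm, Eif2ak3 encodes PERK, the eIF2 kinase of the ER, and Xbp1 the factor whose mRNA is spliced by IRE1. Gene counts do not tell the spliced form from the unspliced one. Eif2ak3 had 20.2, 21.3 and 32.6 CPM in acute libraries, 17.5, 16.8 and 18.9 in remission, 22.5, 19.4 and 19.9 in chronic and 17.4, 21.9 and 17.7 in control (acute over control 0.37 ± 0.19, adjusted p 0.12; -0.18 with library totals alone). Xbp1 had 102, 99.4 and 84.8 CPM in acute libraries, 59.1, 60.6 and 64.5 in remission, 75.4, 81.4 and 89.8 in chronic and 75.0, 87.6 and 110 in control. Acute and control libraries overlapped (log2 fold change 0.08 ± 0.14, adjusted p 0.694; -0.46 with library totals alone). The remission libraries were the 3 lowest of the 12: Xbp1 fell in remission against control (-0.56 ± 0.14, adjusted p 0.0124, ending without remission replicate 1 or control replicate 3, at up to 0.118) and against acute (-0.64 ± 0.14, adjusted p 0.00141).

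Other genes known as ATF4 or CHOP targets were counted from a separate list of 30, of which 23 were tested. In acute against control 14 rose and 1, Cebpg, fell, and the median log2 fold change was 1.02 (9 rose and 3 fell with library totals alone). Over all genes tested, 23.7% were higher and 20.0% lower there. Slc7a11, the cystine transporter, averaged 76.2 ± 27.5 CPM in acute and 1.49 ± 0.889 CPM in control libraries (log2 fold change 5.56 ± 0.45, adjusted p 3.33e-07). Ero1l, an ER oxidase, averaged 36.2 ± 5.82 and 7.10 ± 2.43 CPM, Sqstm1, an autophagy receptor, 75.7 ± 5.79 and 42.1 ± 0.931 CPM, and Slc1a5, a glutamine transporter, 14.6 ± 1.52 and 3.57 ± 0.895 CPM in acute and control libraries. In chronic against control 6 of the 23 rose, with 9.57% of all genes higher. That count was 3 without control replicate 2 or 3 and 2 with library totals alone. Slc7a11 was at 0.779 ± 0.556 CPM in chronic libraries, no higher than in control.

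The eIF2 kinases, eIF2 and eIF2B subunits and the constitutive phosphatase subunit formed a list of 12, all tested. In acute libraries 5 rose against control, with 23.7% of all genes higher. The count was 3 without acute replicate 2 or control replicate 2, and 2 rose and 3 fell with library totals alone. Eif2ak2, the kinase that senses double-stranded RNA and a known interferon-induced gene, averaged 67.7 ± 7.03 CPM in acute, 41.1 ± 10.3 in chronic and 18.8 ± 4.51 in control libraries (log2 fold change over control 1.85 ± 0.19 in acute, adjusted p 2.01e-07, and 1.12 ± 0.19 in chronic, adjusted p 0.000381). Ppp1r15b, the constitutive partner of the eIF2 phosphatase, averaged 130 ± 9.25 CPM in acute and 81.7 ± 5.45 CPM in control libraries.

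ER chaperones and quality control genes were counted from a list of 24 genes of the unfolded protein response, all tested. In acute against control 8 fell (33.3%, against 20.0% of all genes tested), 1 rose, Sec61b, and 15 passed in neither direction. The median log2 fold change of the list was -0.32, against 0.02 over all genes. The number that fell was 5 without acute replicate 1 or control replicate 3, and 21 with library totals alone, and the Sec61b call ended under library totals alone and without acute replicate 2 or control replicate 1. Hsp90b1, the ER form of HSP90, averaged 141 ± 7.71 CPM in acute and 240 ± 30.4 CPM in control libraries (log2 fold change -0.77 ± 0.12, adjusted p 3.99e-05). Herpud1, a gene of ER-associated degradation, averaged 23.4 ± 7.83 and 43.8 ± 3.99 CPM and Pdia3, a disulfide isomerase, 140 ± 15.3 and 194 ± 21.6 CPM in acute and control libraries. In chronic against acute libraries 12 of the 24 rose (50%, against 13.3% of all genes tested). Hsp90b1 averaged 269 ± 26.4 CPM and Calr, an ER lectin chaperone, 314 ± 27.4 CPM in chronic libraries, against 141 ± 7.71 and 169 ± 29.5 CPM in acute libraries. Calr was also the 1 gene of the list above control in chronic libraries (211 ± 50.1 CPM in control, log2 fold change 0.58 ± 0.16, adjusted p 0.0147).

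**Figure D4:**
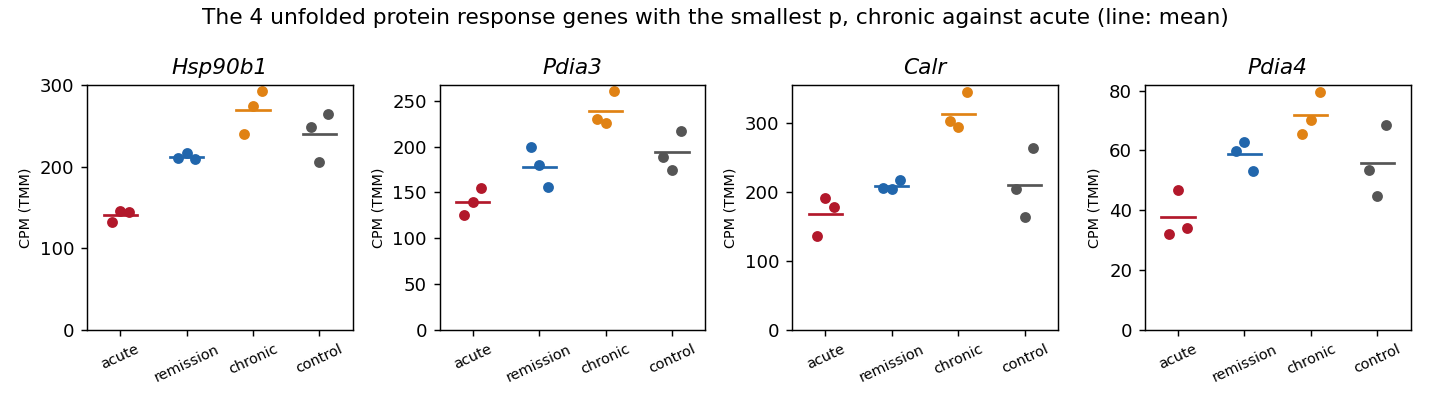
CPM (TMM scaled, linear axes from 0) of Hsp90b1, Pdia3, Calr and Pdia4 in each library of the 4 groups, with a line at the mean. In each gene all 3 chronic libraries lie above all 3 acute libraries, by log2 fold changes of 0.77 to 0.94. These 4 were chosen for the smallest p of the list in that comparison, so their separation is part of the choice.

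In remission, 12 of the 29 tested members were lower than in the acute phase and 0 higher, against 19.4% lower and 17.6% higher over all genes tested, and the members' median log2 fold change was -0.47. With library totals alone 5 were lower and 4 higher (Dars, Ddit3, Eprs and Ppp1r15a). At an unadjusted p under 0.05 2 members were higher, and DESeq2 and limma-voom called 0. Of the 12 members that rose in acute against control, 10 were lower in remission than in acute libraries and Psat1 and Vars were not. Both comparisons use the acute libraries, so their members are not independent. Atf4 and Xbp1 were the other 2 that fell. The Atf4 call was kept in only 6 of 12 fits without 1 library, as given with Atf4 (adjusted p up to 0.247). Without 1 library, the calls of Aars, Hars, Phgdh, Sesn2 and Slc7a5 ended: Aars without acute replicate 2 or 3 or remission replicate 2, Hars without acute replicate 1, Phgdh without acute replicate 2, Sesn2 without acute replicate 3 or remission replicate 2 or 3, and Slc7a5 without acute replicate 2 or 3 or remission replicate 2 (adjusted p up to 0.111). Members higher in remission than in acute then numbered at most 2, Dars and Ppp1r15a without remission replicate 2, with Eprs alone without acute replicate 2 and Ddit3 alone without remission replicate 1.

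Against control, remission libraries had 3 members higher (Eprs, Psat1 and Phgdh) and 1 lower (Xbp1), with 6.06% of all genes higher and 3.25% lower. These counts were 2 and 2 with library totals alone. The members' median log2 fold change was 0.01, and without control replicate 2 Psat1 alone was higher. Eprs (ENSMUSG00000026615, chromosome 1) encodes the fused glutamyl and prolyl enzyme of the complex. It had 62.5, 92.4 and 74.4 CPM in acute libraries, 94.5, 90.3 and 87.7 in remission, 108, 87.7 and 100 in chronic and 68.1, 60.6 and 59.6 in control. Remission and chronic libraries were wholly above control and acute libraries were not. The log2 fold change over control was 0.53 ± 0.14 in remission (adjusted p 0.0164), 0.65 ± 0.14 in chronic (adjusted p 0.00252) and 0.28 ± 0.14 in acute libraries (adjusted p 0.11), and chronic over acute was 0.37 ± 0.14 with an adjusted p of 0.0552. The remission call ended without remission replicate 1 or control replicate 2 or 3 (adjusted p up to 0.0792), and both calls ended with library totals alone.

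In the chronic phase 5 members were higher than control (Eprs, Gars, Qars, Psat1 and Phgdh) and 0 lower, against 9.57% of all genes higher and 5.17% lower. The members' median log2 fold change was 0.37. The counts were 3 higher and 2 lower (Atf4 and Xbp1) with library totals alone. No member was lower at an unadjusted p under 0.05, nor by DESeq2 or limma-voom. Without chronic replicate 1 the number higher was 9, with Aars, Kars, Mthfd2 and Wars added, and with the number in the sample titles in the model it was 7, with Rars and Vars added. The title number was the same in all chronic libraries and varied within each other group, so it is partly tied to phase.

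Against the acute phase, chronic libraries had 2 members lower (Wars and Atf4) and 0 higher, with 15.5% of all genes lower and 13.3% higher; the median over members was -0.12. With library totals alone 1 was lower and 4 higher (Dars, Ddit3, Eprs and Nars). At an unadjusted p under 0.05 4 were higher, DESeq2 called 0 higher and limma-voom 1, Eprs. Without chronic replicate 3, 6 members were lower (Asns, Atf4, Kars, Mthfd2, Slc7a5 and Wars) and 1, Ddit3, higher. Eprs was higher without acute replicate 2, with Nars, and without remission replicate 1 or 2, chronic replicate 2 or control replicate 1. Against remission, chronic libraries had 0 members higher and 0 lower by edgeR, DESeq2 and limma-voom, with 0.941% of all genes higher and 0.263% lower. At an unadjusted p under 0.05 11 were higher and 0 lower, and the median log2 fold change was 0.27. Without chronic replicate 1, Gars, Mthfd2 and Wars were higher, without remission replicate 1 Psat1 was, and without remission replicate 2 Wars was.

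The chronic libraries differed among themselves more than these counts show. Beside the order of the members given with Wars, chronic replicate 3 had the highest sum of the 8 cell cycle genes, 318 CPM against 80.1 and 88.1 CPM in the other chronic libraries and 34.3 to 41.0 CPM in control. The acute libraries summed to 111 to 146 CPM, above these other chronic libraries, and the remission libraries to 18.6 to 39.3 CPM. The part of these differences in the members' levels was not tested.

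**Figure D5:**
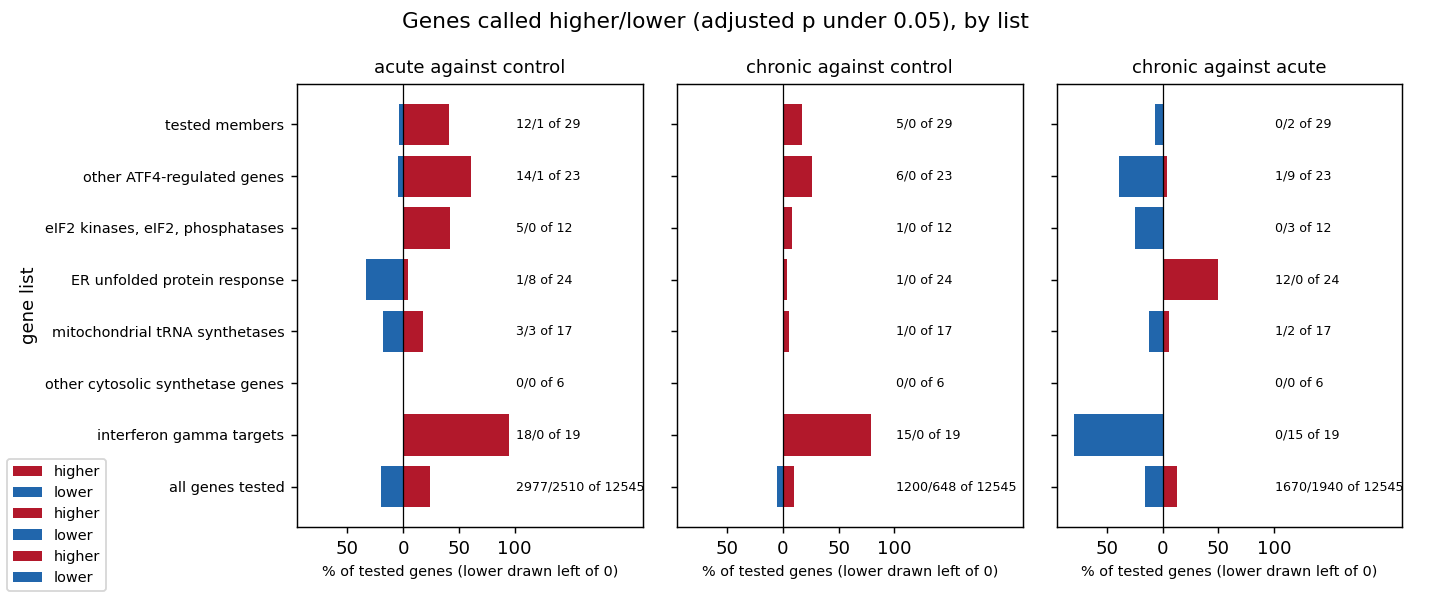
Share of tested genes called higher (right of 0) and lower (left of 0) at an adjusted p under 0.05, for the members, 6 related lists and all genes, in 3 comparisons; counts stand at the right as higher/lower of tested. The members show 12 higher and 1 lower in acute against control (6 and 8 with library totals alone), while the ER list shows 8 lower there and 12 higher in chronic against acute.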

How the data were processed

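RNA of sorted spinal cord microglia from 12 mice, 3 in each of 4 groups, was sequenced. The tools named in the submitters' processing notes are HISAT2 with genome GRCm38, HTSeq 0.6.1, Picard 2.6.4 and SAMtools 1.3.1; HISAT2 version, HTSeq settings and annotation release are not given in the sources used here. The authors deposited whole-number read counts per gene for 48526 Ensembl IDs. GENCODE M21 held 48144 of them and gave symbols and coordinates; the others held 0.02078% of counts. The Nextera XT kit named in the labels' protocols does not mark strand. Reads in exon bases shared by genes on opposite strands therefore cannot be told apart. Aars shares 1326 exon bases with Exosc6 on the same strand, and Exosc6 had 0 counts over all libraries.

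In R 4.3.3, edgeR 4.0.16 (filterByExpr, TMM factors, 1 model of 4 groups, robust quasi-likelihood test, Benjamini-Hochberg adjustment) tested 12545 genes, 29 of the 32 members among them, in 6 comparisons; a call is an adjusted p under 0.05. Means carry the SD over 3 mice and fold changes their SE. Simulated data were used to check the fit. Pooled ratios carry exact 95% intervals, which cover counting error only. Where control libraries had 0 counts, a floor of 3 counts stood in for them and no interval was given. Replicate numbers follow record order and pair no mice, and p-values measure the spread between these mice. Alternatives were DESeq2 1.42.0 and its size factors, limma-voom (limma 3.58.1), library totals alone, the top 6 features and mitochondrial genes set aside, no filter, a title-number covariate, only the groups compared, and leaving out each library. The labels do not say what the title number stands for, and it is not balanced over the phases.

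The members, the other lists and the markers were chosen with earlier results of these data known. All members are accounted for; library values are given for called members without overlap and for Atf4, Ddit3, Asns, Wars, Xbp1 and Eif2ak3, and up to 4 genes of smallest p for another list. Genes given beyond this were chosen after their values were seen. Promoter sequences are from RefSeq (GRCm38.p6).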

Additional observations from a re-analysis of the deposited data

How the results depend on the processing

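No paired analysis was possible because the replicate numbers follow the order of the records and pair no mice. With library totals alone, 6 members were higher and 8 lower in acute than in control libraries, 2 lower in remission than in control, 3 higher and 2 lower in chronic than in control, 4 higher and 5 lower in remission than in acute, and 4 higher and 1 lower in chronic than in acute. That scaling turned the acute log2 fold change over control to -0.0382 in Aars, -0.0258 in Vars, -0.29 in Atf4, -0.18 in Eif2ak3 and -0.46 in Xbp1; Xbp1 ran between -0.071, without control replicate 1, and 0.21, without control replicate 3. No share over all genes is given for library totals alone. Fitting only acute and control libraries gave 2 members lower in acute. In chronic against acute, setting the top features and mitochondrial genes aside gave 2 higher, no filter 1 higher and 4 lower, limma-voom 1 higher and 4 lower, and DESeq2 1 lower; in chronic against remission, no filter gave 4 higher (Gars, Mthfd2, Psat1 and Wars).

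Without 1 library in turn, the number of members higher ranged between 9 and 14 in acute, 1 and 3 in remission and 4 and 9 in chronic libraries, each against control, between 0 and 2 in remission and 0 and 2 in chronic libraries against acute, and between 0 and 3 in chronic libraries against remission. The number lower ranged between 0 and 1 in acute and 0 and 1 in remission libraries against control, and between 8 and 13 in remission and 1 and 6 in chronic libraries against acute; it stayed at 0 in chronic libraries against control and against remission. The cause of these changes was not tested. Outside the top features and mitochondrial genes 1266782 to 2496096 counts remained per library, so members below about 1 CPM rest on few reads.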
